A study of Mus musculus with 8 samples.

Results

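Nrf2 (nuclear factor erythroid 2-related factor 2, gene Nfe2l2) and its core antioxidant targets were followed as 10 genes, chosen by symbol from a table of 19191 gene rows, and all 10 were found. They were Nfe2l2, Keap1, Sqstm1, Slc7a11, Gclc, Gclm, Txnrd1, Srxn1, Nqo1 and Hmox1, and each passed the filter on low counts. RNA was sequenced from regulatory T (Treg) cells, which express the transcription factor Foxp3 and restrain immune responses. They were sorted by flow cytometry from large-intestinal lamina propria of C57BL/6 mice. KO libraries came from Ahrf/- Foxp3Yfp-Cre mice (n = 2) and WT libraries from Ahrf/+ Foxp3Yfp-Cre mice (n = 2). All mice therefore carried a floxed Ahr allele and the Foxp3-driven Cre recombinase, which acts in Foxp3-expressing cells, so that WT Treg cells kept an intact Ahr allele beside the deleted floxed one. By these genotypes the cells that do not express Foxp3 differed too, with a null allele in KO mice only. The labels give no age and do not say whether the replicates came from separate animals, so the p-values measure the spread between these libraries, which may be technical.

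Nrf2 is a transcription factor that is made continuously and degraded continuously. Keap1 binds it in the cytoplasm and hands it to a ubiquitin ligase. Oxidants or electrophiles that modify Keap1 let Nrf2 accumulate, enter the nucleus and bind antioxidant response elements together with a small Maf protein. Ahr, the aryl hydrocarbon receptor, is a ligand-activated factor that binds its own response element, and the 2 pathways are known to share target genes, with Nqo1 as the classical example and Nfe2l2 itself described as an Ahr target. The KO against WT comparison asks which transcripts of gut Treg cells differed with the loss of Ahr, and for these genes whether the antioxidant program differed with it.

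Fitted log2 fold changes (positive where KO was higher) ran from -0.0033 to 0.12 for Keap1, Sqstm1, Slc7a11, Gclc, Gclm, Txnrd1 and Hmox1. They were 0.30 for Srxn1, -0.48 for Nfe2l2 and -0.72 for Nqo1. The interval of the fit included 0 for each of the 10 genes. It was wide for Slc7a11 (0.654 to 1.81 times the WT level) and for Nqo1 (0.234 to 1.58 times). Nqo1 had few counts and its genotypes overlapped. None of the 10 genes passed edgeR's quasi-likelihood test at a Benjamini-Hochberg adjusted p under 0.05 over all 14274 genes tested (adjusted p = 1.00 for each), where the share called was 0% (0 genes). The count among the 10 was also 0 at an unadjusted p under 0.05, a level that 2.85% of all genes tested reached. It was 0 with DESeq2 and with limma-voom at the same adjusted threshold. DESeq2, run without that filter, called 0.267% of 17996 genes, and limma-voom called 0% of the 14274. The fitted log2 fold change was above 0 for 7 genes and below 0 for 3, beside 52% of all genes tested above 0. Its median was 0.08 over the 10 genes and 0.0074 over all genes tested. In the fits that left out a library the median of the 10 genes was lower, from 0.0054 to 0.0728. The 2 genes farthest from 0 were Nqo1 and Nfe2l2, both with a fitted change below 0, and Srxn1 was the farthest on the higher side. Both KO libraries lay below both WT libraries for Nfe2l2 alone, and above both for Sqstm1 alone, while this held for 13.4% and 13.5% of all genes tested, so the share among the 10 genes is close to that background.

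**Figure D1:**
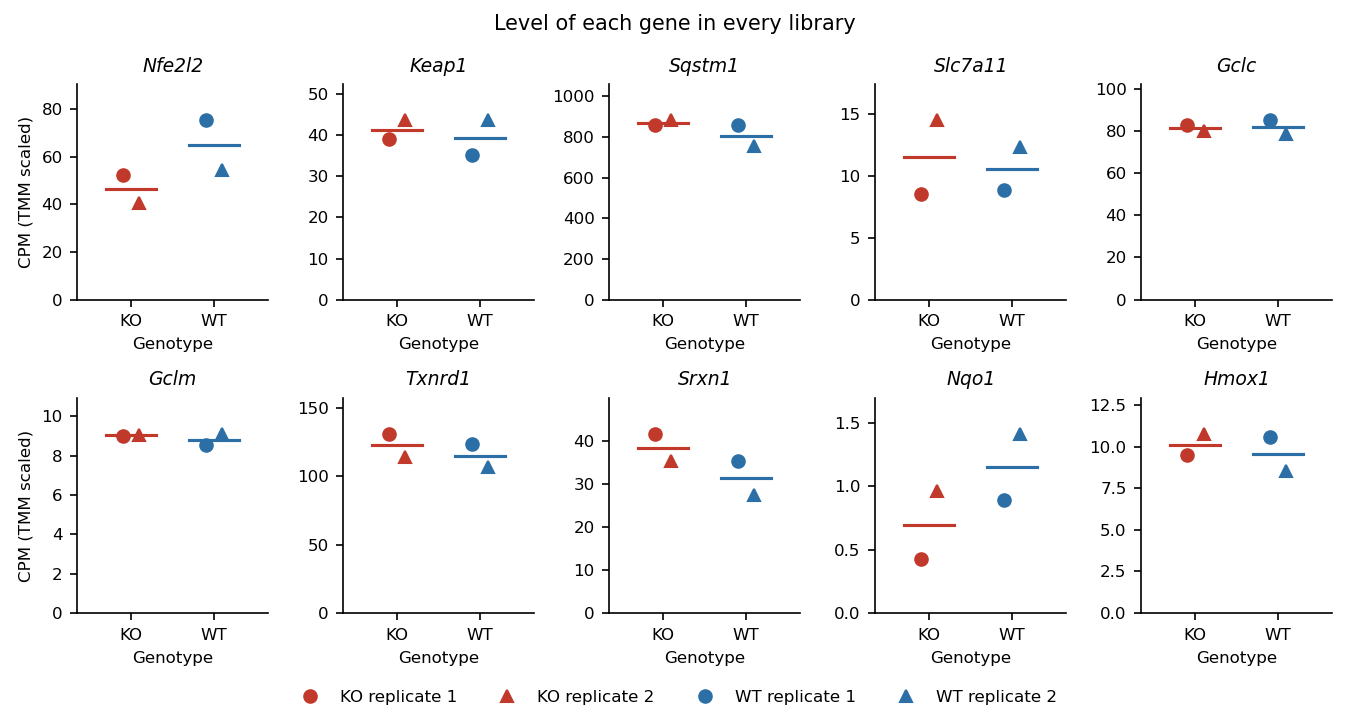
Level of each of the 10 genes in every library, in CPM (counts scaled to a common library total by TMM) (vertical axes start at 0), with KO left of WT, circles for replicate 1, triangles for replicate 2 and lines at the genotype means. Nfe2l2 was lower in both KO libraries (52.4 and 40.5 CPM) than in both WT libraries (75.3 and 54.3 CPM), whereas the Gclc and Gclm points of the genotypes lie at nearly the same height.

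Promoter windows are shown for the gene of the factor itself, for the farthest gene on the higher side, for a gene at the same level in both genotypes and for the classical shared target. They run from 250 bases before to 50 bases after an annotated transcript start and were taken from RefSeq (GRCm38.p6), which gave 10 windows for 8 of the 10 genes, 3 of them for Txnrd1. Both strands were searched for the core of the antioxidant response element, TGACNNNGC, and for the core of the Ahr response element, GCGTG, and capitals mark the matches of either.
Nfe2l2 (chr2:75704614-75704913, minus strand): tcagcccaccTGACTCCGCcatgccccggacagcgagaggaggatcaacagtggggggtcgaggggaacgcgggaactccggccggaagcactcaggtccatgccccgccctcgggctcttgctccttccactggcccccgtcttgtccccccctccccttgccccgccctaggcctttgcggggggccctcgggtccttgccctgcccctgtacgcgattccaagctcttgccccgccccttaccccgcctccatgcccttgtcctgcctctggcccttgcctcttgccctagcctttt
Srxn1 (chr2:152105274-152105573, plus strand): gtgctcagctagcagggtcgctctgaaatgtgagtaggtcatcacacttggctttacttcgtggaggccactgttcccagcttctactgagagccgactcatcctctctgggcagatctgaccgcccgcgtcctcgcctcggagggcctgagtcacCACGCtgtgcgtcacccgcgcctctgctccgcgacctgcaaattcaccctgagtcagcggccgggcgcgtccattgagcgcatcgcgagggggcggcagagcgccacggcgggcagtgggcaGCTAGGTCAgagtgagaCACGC
Gclm (chr3:122245307-122245606, plus strand): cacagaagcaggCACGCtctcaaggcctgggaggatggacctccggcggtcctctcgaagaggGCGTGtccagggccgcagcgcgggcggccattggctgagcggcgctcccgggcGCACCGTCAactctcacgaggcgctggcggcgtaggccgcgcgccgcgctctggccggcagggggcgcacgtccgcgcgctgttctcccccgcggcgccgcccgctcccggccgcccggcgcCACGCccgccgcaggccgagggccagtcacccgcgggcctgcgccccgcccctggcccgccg
Nqo1 (chr8:107403156-107403455, minus strand): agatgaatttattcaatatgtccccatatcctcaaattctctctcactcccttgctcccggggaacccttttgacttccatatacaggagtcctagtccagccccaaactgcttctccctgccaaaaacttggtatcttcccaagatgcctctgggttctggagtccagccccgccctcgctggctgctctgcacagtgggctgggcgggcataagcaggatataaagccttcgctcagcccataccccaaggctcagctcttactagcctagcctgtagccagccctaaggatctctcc

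The Nfe2l2 window held the antioxidant core, starting 240 bases before the transcript start as TGACTCCGC, and no Ahr core. In the Srxn1 window the antioxidant core began 28 bases after the start on the opposite strand, with Ahr cores from 94 bases before and 45 bases after the start. The letters tgagtcagc, before the start in that window, differ from the searched antioxidant core by a single base and were not counted. The Gclm window had the antioxidant core from 134 bases before the start and 3 Ahr cores, and the Nqo1 window had neither. Over the 8 genes with a window, 4 had the antioxidant core, 4 had the Ahr core and 3 (Sqstm1, Slc7a11 and Nqo1) had neither. Of the 10 windows, 4 held the antioxidant core and 6 the Ahr core, against 12.4% and 32.4% of all 32851 windows of that length. No match of one core overlapped a match of the other in these windows. These matches describe only the searched letters in a short window, leave out variants of the cores, and are not evidence that either factor binds there.

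**Figure D2:**
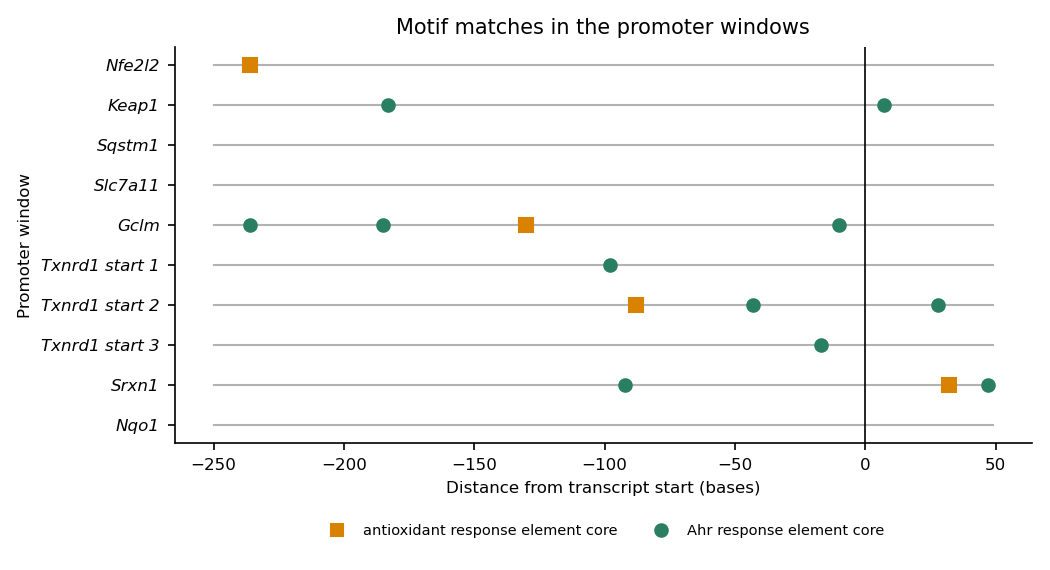
Matches of the 2 cores in the 10 promoter windows (rows), by distance from the transcript start in bases, with squares for the antioxidant core and circles for the Ahr core. The single match in the Nfe2l2 window lies 240 bases before the start, and the Sqstm1, Slc7a11 and Nqo1 rows hold none.

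Nfe2l2, which encodes Nrf2 (chromosome 2, 75513570 to 75542698, minus strand, mm9), had 52.4 and 40.5 CPM in KO replicates 1 and 2, against 75.3 and 54.3 CPM in WT replicates 1 and 2. The genotypes did not overlap, but the higher KO library lay close to the lower WT library, and replicate 1 was above replicate 2 in both genotypes. The counts behind these levels were 1607 and 2139 in KO and 2021 and 3455 in WT, so counting error was small beside the differences between libraries. The means were 46.4 ± 8.42 CPM in KO and 64.8 ± 14.8 CPM in WT (SD, n = 2 each). Its log2 fold change of -0.48 ± 0.21 (SE) corresponds to 0.717 times the WT level, and the 95% interval ran from 0.502 to 1.02 times (edgeR, unadjusted p = 0.0622, adjusted p = 1.00). A fit with the replicate number as a term has 1 residual degree of freedom. It called Nfe2l2 lower in KO (log2 fold change -0.47), as 1 of 458 genes called, 3.21% of the 14274 tested. Srxn1 was also among the 458, with the opposite sign (log2 fold change 0.30). The labels do not say that a number marks a shared animal or day. Nfe2l2 kept its direction in each of the 4 fits that left out a library, from -0.70 without WT replicate 2 to -0.23 without WT replicate 1. In the authors' deposited table its adjusted p was 0.141, the lowest of the 10 genes there, beside 0.889 for each of the other 9, and 0.344% of all rows of that table were under 0.05. In bulk RNA, fewer cells of a type and less RNA per cell cannot be told apart.

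Markers of other cells were also present and differed between libraries. Counts for 13 macrophage genes summed to 116 and 51.2 CPM of the library total in KO, against 159 and 73.9 CPM in WT, with replicate 1 above replicate 2 in both genotypes as for Nfe2l2. The 7 dendritic cell genes summed to 128 and 69.2 CPM in KO and 146 and 78.3 CPM in WT, of which H2-Aa alone made up 81.4 and 24.2 CPM in KO and 100.3 and 41.1 CPM in WT, and 4 of the 7 were higher in replicate 1 than in replicate 2 of both genotypes. The genotypes overlapped on the macrophage and the dendritic sums. Within each replicate number both sums were lower in KO, but the labels do not pair the libraries by number. None of the 13 macrophage genes had both KO libraries below, or both above, both WT libraries. The most abundant macrophage gene was Lyz2, and Cd163 was near the floor, with 3 and 0 counts in KO and 1 and 3 counts in WT. C1qa was better counted, with 14.1 and 2.36 CPM in KO and 22.0 and 6.52 CPM in WT. Csf1r had 24.5 and 12.5 CPM in KO and 36.0 and 16.6 CPM in WT. The log2 fold changes were -0.78 ± 0.91 (SE) for C1qa and -0.48 ± 0.46 for Csf1r. Epithelial markers summed to 29.2 and 45.2 CPM in KO and 28.0 and 28.8 CPM in WT, so that the genotypes did not overlap, by a narrow margin, and both KO libraries lay above both WT libraries for 8 of the 13 genes and below them for 2. Krt8, a keratin of simple epithelia, had 31 and 204 counts in KO and 0 and 8 counts in WT. Krt19, another keratin, had 17 and 129 counts in KO and 4 and 0 counts in WT, and Car1, a colonic carbonic anhydrase, had 28 and 201 counts in KO and 0 and 20 counts in WT. In edgeR the adjusted p of these 3 genes was 1.00, and in the authors' deposited table it was 5.35e-05 for Krt8, 4.46e-04 for Krt19 and 2.48e-04 for Car1. Epcam, the most abundant epithelial gene, was on the other side, with 12.1 and 13.6 CPM in KO and 14.7 and 14.8 CPM in WT. The Treg identity genes stood far above all these lists, with 8485 and 7682 CPM in KO and 7697 and 7279 CPM in WT. Of these 9 genes, 7 were also higher in replicate 1 than in replicate 2 of both genotypes. Erythroid genes, which bear on heme, summed to 38.4 and 37.4 CPM in KO and 30.0 and 53.7 CPM in WT. B and plasma cell genes summed to 152 and 358 CPM in KO and 148 and 280 CPM in WT. Igj alone made up 129.7 and 338.9 CPM of these in KO and 122.3 and 253.9 CPM in WT. Both KO libraries lay below both WT libraries for 3 of the 7 B and plasma genes and above them for 0. Stromal and endothelial genes summed to 115 and 183 CPM in KO and 121 and 180 CPM in WT. Of these sums Pecam1 alone made up 104 and 106 CPM in KO and 107 and 115 CPM in WT, so the replicates differed mainly in the other genes of that list. Neutrophil genes reached at most 1.15 CPM in any library and mast cell and basophil genes at most 0.161 CPM, with Fcer1a at 0 counts in all. The most abundant genes of the lists were Ctla4 for Treg identity, Igj (B and plasma), Pecam1 (stromal and endothelial), Hbb-b1 (erythroid), Csf3r (neutrophil) and Cpa3 (mast and basophil). The part of any of these cells in the Nfe2l2 difference was not tested.

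**Figure D3:**
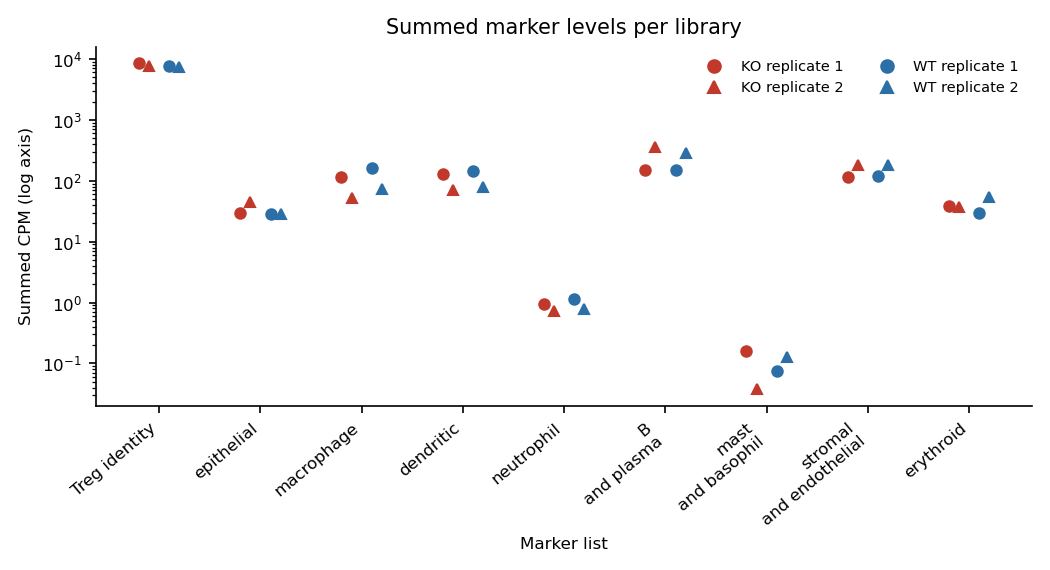
Summed level of the marker genes of each cell type (CPM of the library total, log axis) in every library, KO left of WT, circles for replicate 1 and triangles for replicate 2. The macrophage sums run from 51.2 to 159 CPM and are higher in replicate 1 than in replicate 2 of both genotypes, while the Treg sums lie between 7279 and 8485 CPM.

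Keap1, the adaptor that marks Nrf2 for degradation (chromosome 9, 21034174 to 21043776, minus strand), had 39.2 and 43.6 CPM in KO and 35.3 and 43.6 CPM in WT. The replicate 2 libraries were at the same level in both genotypes, and KO replicate 1 lay between the WT libraries. Its log2 fold change was 0.07 ± 0.14 (95% interval -0.29 to 0.42). Counts of Nfe2l2 per count of Keap1, a ratio within each library that no scaling touches, were 1.34 and 0.927 in KO and 2.13 and 1.24 in WT. That ratio overlapped between genotypes, since KO replicate 1 exceeded WT replicate 2. Within each replicate number KO had the lower ratio, but the labels do not pair the libraries by number. Sqstm1 encodes p62, an autophagy receptor that binds Keap1 and thereby stabilizes Nrf2, and is itself an Nrf2 target (chromosome 11, 50012868 to 50024329, minus strand). It had 859.9 and 882 CPM in KO and 857 and 757 CPM in WT. Both KO libraries were above both WT libraries, though KO replicate 1 and WT replicate 1 were almost equal. In log2 terms Sqstm1 differed by 0.11 ± 0.10 (95% interval -0.14 to 0.36). Sqstm1 shares 750 bases with 3010026O09Rik on the other strand, and the strand setting of the counting is not given in the sources used here.

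The glutathione branch showed no difference larger than the spread between libraries. Slc7a11, the cystine importer xCT that supplies cysteine for glutathione, had 8.54 and 14.5 CPM in KO and 8.83 and 12.3 CPM in WT. Replicate 2 was higher than replicate 1 in both genotypes and the genotypes overlapped. Its log2 fold change was 0.12 ± 0.29, with a wide 95% interval from -0.61 to 0.86. Gclc, the catalytic subunit of glutamate-cysteine ligase, the rate-limiting enzyme of glutathione synthesis, had 82.9 and 80.1 CPM in KO and 85.0 and 78.4 CPM in WT. Both KO values lay between the WT values. The log2 fold change of Gclc was -0.0033 ± 0.10, and its 95% interval of 0.842 to 1.18 times the WT level was the narrowest of the 10 genes. Gclm, the modifier subunit of the same ligase, had 8.99 and 9.06 CPM in KO and 8.53 and 9.11 CPM in WT, again with the KO values inside the WT range. Its interval ran from 0.810 to 1.29 times the WT level. Small changes of either ligase subunit in either direction lie inside these intervals.

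Both genes of the thioredoxin branch had fitted changes above 0, without a called difference in the fit with genotype as the only term. Txnrd1, the cytosolic thioredoxin reductase, had 131 and 114 CPM in KO and 123 and 107 CPM in WT. Replicate 1 was above replicate 2 in both genotypes, and the genotypes overlapped. Its log2 fold change was 0.09 ± 0.12 (95% interval -0.21 to 0.39). Srxn1, sulfiredoxin, which restores overoxidized peroxiredoxins, had 41.6 and 35.2 CPM in KO and 35.3 and 27.3 CPM in WT. KO replicate 2 fell just under WT replicate 1, so the genotypes overlapped by a narrow margin. Srxn1 had a log2 fold change of 0.30 ± 0.16 (95% interval -0.11 to 0.71), with an unadjusted p of 0.126 (edgeR, adjusted p = 1.00). Without single libraries the log2 fold change ran from 0.12 without WT replicate 2 to 0.49 without WT replicate 1. Srxn1 was the second of the 10 genes by p, after Nfe2l2, and the 2 had opposite signs.

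Nqo1 and Hmox1 are the textbook readouts of Nrf2 activity. Nqo1, a quinone reductase that both Nrf2 and Ahr induce (chromosome 8, 109912125 to 109927106, minus strand), was scarcely detected, with 13 and 51 counts in KO and 24 and 90 counts in WT. These correspond to 0.424 and 0.965 CPM in KO and 0.894 and 1.41 CPM in WT. The genotypes overlapped, because KO replicate 2 exceeded WT replicate 1, and replicate 2 was above replicate 1 in both genotypes. The log2 fold change of Nqo1 was -0.72 ± 0.55, the farthest from 0 of the 10 genes, with the widest 95% interval, from 0.234 to 1.58 times the WT level (edgeR, unadjusted p = 0.244, adjusted p = 1.00). A level far under that of WT and an unchanged level both lie inside that interval. In the fits that left out a library the log2 fold change ran from -1.46 without KO replicate 2 to -0.29 without KO replicate 1, and without KO replicate 1 or WT replicate 2 it was nearer to 0 than that of Nfe2l2. Hmox1, heme oxygenase 1, which degrades heme, had 9.48 and 10.8 CPM in KO and 10.6 and 8.54 CPM in WT. The libraries of both genotypes were interleaved. Its log2 fold change was 0.09 ± 0.17 (95% interval -0.32 to 0.51).

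**Figure D4:**
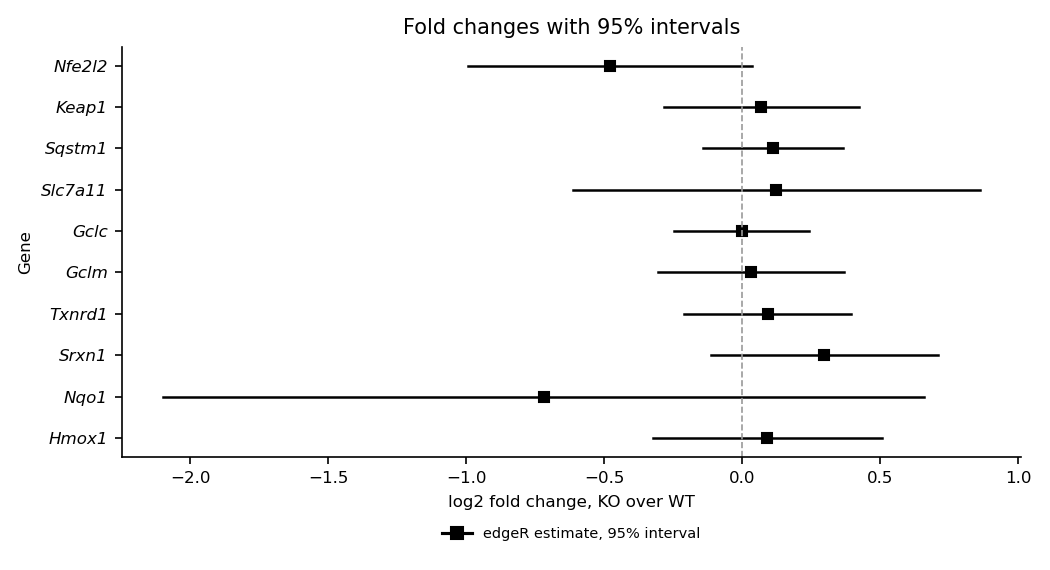
Log2 fold change of KO over WT for the 10 genes (squares, edgeR) with 95% intervals (lines), and a dashed line at 0. Every interval includes 0, and the Nfe2l2 interval reaches from -0.99 to 0.03 whereas that of Nqo1 reaches from -2.10 to 0.66.

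Beyond the core genes, 113 further genes of the pathway were listed in 6 groups, of which 109 were in the table and 100 were tested. None passed edgeR over all genes tested (0% of which were called), and none passed DESeq2 or limma-voom. At an unadjusted p under 0.05 edgeR had 7 of the 100, 3 higher and 4 lower in KO, beside 2.85% of all genes tested (1.64% higher and 1.21% lower). Both KO libraries were above both WT libraries for 17 and below them for 11, beside 13.5% and 13.4% of all genes tested. The fitted change was above 0 for 57 and below 0 for 43, and the median log2 fold change was 0.03. The lists were chosen with earlier results of these data known, so these shares are not independent of the data. Tiparp, among the 4 lower genes, is known foremost as an Ahr target.

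Among the partners and regulators of Nrf2 (16 tested, 11 above and 5 below 0, median 0.06) the differences were small. Bach1, the repressor that competes with Nrf2 for antioxidant response elements and leaves them when heme binds it, had 89.6 and 82.0 CPM in KO and 81.6 and 67.8 CPM in WT, a log2 fold change of 0.20 ± 0.13, the genotypes being apart by a narrow margin. Mafk, a small Maf partner, had 0.20 ± 0.13. Btrc, which encodes a receptor of the other ubiquitin ligase that targets Nrf2, had -0.31 ± 0.17. Each of these 3 had an adjusted p of 1.00 (edgeR).

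Genes of glutathione synthesis and use split in both directions (27 tested, 17 above and 10 below 0, median 0.09), and 3 of them had an unadjusted p under 0.05. Glrx, glutaredoxin, which removes glutathione from proteins, had 231 and 187 CPM in KO and 162 and 146 CPM in WT, a log2 fold change of 0.44 ± 0.13 (edgeR, unadjusted p = 0.0166, adjusted p = 1.00). Mgst2, a microsomal glutathione transferase, had 9.35 and 10.5 CPM in KO and 13.4 and 13.7 CPM in WT, a log2 fold change of -0.45 ± 0.13 (unadjusted p = 0.0139). The genotypes did not overlap for either gene. Chac1, which breaks down glutathione, had only 20 and 31 counts in KO and 3 and 17 counts in WT, and its log2 fold change of 1.60 ± 0.63 rests on these few counts (unadjusted p = 0.0463).

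In the group of thioredoxin, peroxiredoxin, catalase and superoxide dismutase genes (19 tested, 11 above and 8 below 0, median 0.01) most values lay close to 0. Txn1, thioredoxin, the substrate of Txnrd1, was the exception by p, with 86.2 and 94.0 CPM in KO and 74.2 and 71.8 CPM in WT, a log2 fold change of 0.30 ± 0.10 (edgeR, unadjusted p = 0.0242, adjusted p = 1.00). Sesn1, a stress-induced sestrin, had -0.15 ± 0.11, and Msra, a methionine sulfoxide reductase, had -0.18 ± 0.16. The genes of NADPH supply (12 tested, 5 above and 7 below 0, median -0.03) had no member with an unadjusted p under 0.05. Their lowest p belonged to Me1, malic enzyme, at 7 and 6 counts in KO and 11 and 26 counts in WT, a log2 fold change of -1.30 ± 0.66. Idh1, an isocitrate dehydrogenase, had 0.16 ± 0.17, and Me2, the mitochondrial malic enzyme, had 0.06 ± 0.11. Heme and iron genes (11 tested, 5 above and 6 below 0, median -0.0093) also had none. Slc48a1, a heme transporter, had 0.22 ± 0.12, Abcb6, a porphyrin transporter, had -0.29 ± 0.29, and Hebp1, a heme-binding protein, had -0.50 ± 0.49 from 14 and 23 counts in KO and 19 and 36 counts in WT.

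The detoxification genes (15 tested, 8 above and 7 below 0, median 0.08) included the lowest p-values of all these lists. Tiparp, an ADP-ribosylase that Ahr induces, had 271 and 278 CPM in KO and 403 and 354 CPM in WT, a log2 fold change of -0.46 ± 0.10 (edgeR, unadjusted p = 0.00421, adjusted p = 1.00). DESeq2 gave it an adjusted p of 0.0723, and the authors' deposited table one of 0.0116. Ephx1, the microsomal epoxide hydrolase, had 90.2 and 81.9 CPM in KO and 114 and 112 CPM in WT, a log2 fold change of -0.39 ± 0.10 (unadjusted p = 0.00788, DESeq2 adjusted p = 0.514). In both genes the WT libraries stood clear of the KO libraries. Cbr3, a carbonyl reductase, was at 3 and 7 counts in KO and 9 and 42 counts in WT, a log2 fold change of -2.09 ± 0.68 (unadjusted p = 0.0245). Tiparp was listed here although it is known foremost as an Ahr target.

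**Figure D5:**
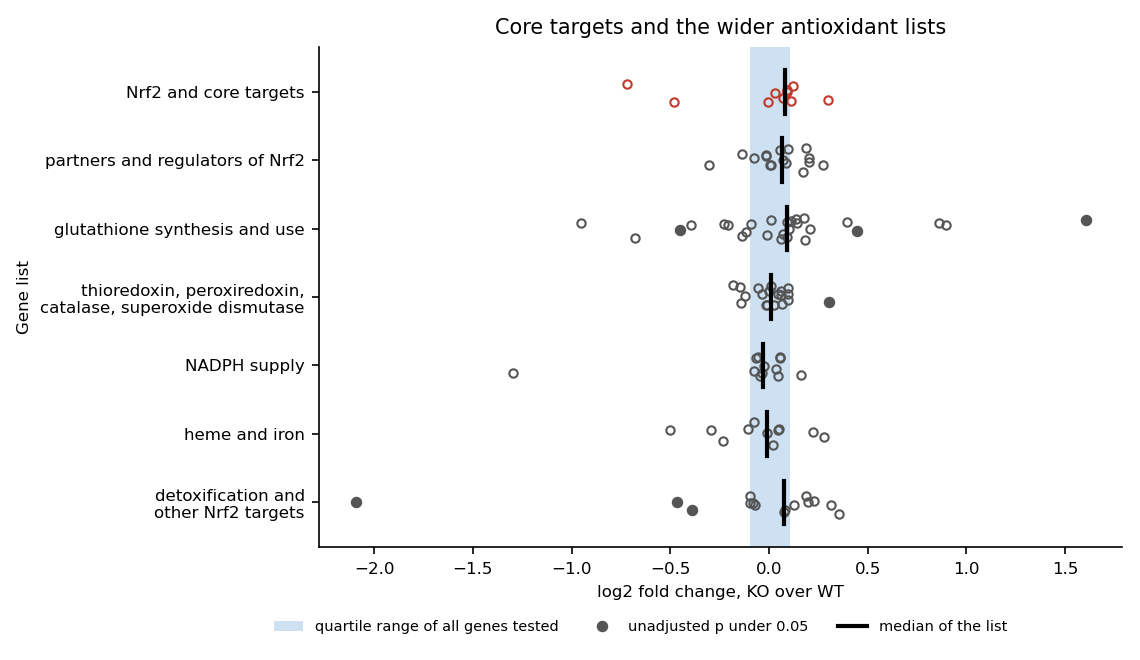
Log2 fold change of KO over WT for each tested gene of the 10 core genes (red) and the 6 further lists (grey), with filled points for an unadjusted p under 0.05, black bars at the list medians and a band over the quartile range of all genes tested (-0.10 to 0.11). Each list median lies inside the band, and the filled points are 3 higher and 4 lower genes outside the core list.

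The libraries held 30993483 and 53438828 counts in KO and 26862922 and 62402450 counts in WT, and in both genotypes replicate 2 was the deeper one. Ahr itself, counted over the whole gene, had 536 and 518 CPM in KO and 581 and 539 CPM in WT, a log2 fold change of -0.09 ± 0.09, so the count did not check the deletion, which a transcript lacking part of the gene can escape. Levels are given per library and were not compared between genes, since CPM takes no account of transcript length. The fitted sign turned in at least 1 of the fits that left out a library for Keap1, Slc7a11, Gclc, Gclm, Txnrd1 and Hmox1, and in none of them for Nfe2l2, Nqo1, Srxn1 and Sqstm1.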

How the data were processed

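RNA-seq was done on 4 of the 8 samples of the series, 2 KO and 2 WT. ATAC-seq, done on the other 4, is not analysed here. Per the labels' protocols, total RNA of sorted cells was depleted of ribosomal RNA and read as single-end reads. The authors' deposited table gave whole-number counts per gene and library without normalization, gene positions, and adjusted p-values, read here as those of KO against WT although the column names no comparison. The tools named are TopHat2 and DESeq and the build is mm9, per the submitters' processing notes. How reads were counted, with which annotation and strand setting, is not given in the sources used here. Columns were matched to samples by title.

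Genotypes were compared in edgeR 4.0.16 (R 4.3.3) by a two-sided quasi-likelihood test with genotype as the only term, on the 14274 of 19191 genes kept by filterByExpr (4917 were not tested), scaled by TMM. Genes were called at an adjusted p under 0.05 (Benjamini-Hochberg, over all genes tested). Residual degrees of freedom were 2, and the tests and intervals added edgeR's prior degrees of freedom (median 3.49). The SE was derived from the log2 fold change and the F statistic of the test. CPM are counts scaled to a common total by tested counts and TMM factor, and sums over marker lists use the library total. Intervals are 95% intervals of the fit. Alternatives were other scalings, no filter, a stricter filter (2 or more libraries with a CPM of 2 or more), DESeq2 1.42.0, limma-voom 3.58.1, a replicate block, the omission of each library in turn and an adjusted p under 0.1. The fits were also run on simulated counts to check their estimates. That simulation had no replicate effect and placed changes only in well-counted genes, larger than most reported here, so it does not bear on small changes or low counts. Of the wider lists, the text names the 3 tested genes of lowest p per group. Of each marker list it names the most abundant gene, and Cd163, C1qa, Csf1r, Fcer1a, Krt8, Krt19 and Car1 were named after their values were seen. The 10 genes and the lists were chosen with earlier results of these data known.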

Additional observations from a re-analysis of the deposited data

How the results depend on the processing

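Among the 10 core genes, no call was gained under other scalings, other filters, DESeq2, limma-voom, an adjusted p under 0.1 or the omission of any library, and the stricter filter left Nqo1 untested. Over these settings without the block and with all libraries, the log2 fold change of Nfe2l2 ran from -0.51 to -0.47 and that of Srxn1 from 0.27 to 0.32. The count of genes called over the whole table was 0 with the main edgeR test, 52 without a filter, 48 with DESeq2 and between 0 and 2 without single libraries, and the cause was not tested. Without single libraries the median log2 fold change of the core genes ran from 0.0054 to 0.0728.

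A fit with the replicate number as block term called 458 genes (3.21% of those tested), 275 higher and 183 lower, among them 2 core genes, Nfe2l2 lower (log2 fold change -0.47, adjusted p = 9.61e-05) and Srxn1 higher (0.30, adjusted p = 0.0389), and 5 genes of the wider lists, Glrx and Txn1 higher and Mgst2, Tiparp and Ephx1 lower. That fit has 1 residual degree of freedom. The differences between replicate 2 and replicate 1 in KO and in WT correlated across genes at 0.641, a hint from the data, since the labels do not say that a number marks a shared animal or day. Log2 ratios of KO over WT between same-numbered libraries were -0.52 and -0.42 for Nfe2l2 and 0.24 and 0.37 for Srxn1.

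Leaving out single libraries turned the sign of genes near 0, with ranges from -0.0758 to 0.23 for Keap1, -0.32 to 0.44 for Slc7a11, -0.0615 to 0.0539 for Gclc, -0.0142 to 0.0816 for Gclm, -0.0226 to 0.20 for Txnrd1, -0.0618 to 0.24 for Hmox1 and -0.0238 to 0.14 for Me2. Such fits leave a genotype with a lone library, assumed to vary like the others, and compare unequal mixes of replicates. The counts of Nqo1, Chac1, Me1, Hebp1 and Cbr3 were low, and their intervals were wide.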
